A study of Mus musculus with 23 samples.

Results

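The 7 genes described here had few or no counts in the control livers of this mouse model and were chosen for that reason: *Tff3* (Entrez 21786), *Bex1* (19716), *Cacna1b* (12287), *Gldn* (235379), *Lrtm2* (211187), *Lingo4* (320747) and *Adm2* (223780). They are 7 of the 27179 genes in the deposited count table and were picked, by symbol, for near-zero counts in Ctrl mice and high counts with *Braf* V600E. Differences from Ctrl therefore describe the choice and are given without a test. RNA was sequenced from liver tissue without visible tumors of 15 female mice, each with 1 column of counts. All mice carry *Alb-Cre*, a Cre recombinase driven by the albumin promoter that acts in hepatocytes, and *Trp53* flx/flx, so that the controls lack *Trp53* in these cells too. The 6 Ctrl mice have wild-type *Braf* and *Icmt* flx/+. The 6 ABpIF/+ mice carry 1 *Braf* CA allele, from which Cre produces the V600E kinase, and *Icmt* flx/+. The 3 ABpIF/F mice carry the same *Braf* allele with *Icmt* flx/flx, so that Cre can act on both copies of the methyltransferase gene *Icmt*. The *Braf* genotype is taken from the study's design text, because the sample labels write BRAF +/+ for the 9 mice of both *Braf* V600E groups. Ages are not given in the labels. The paper describes ABpIF/F mice of different ages without naming them, so the age of each mouse is not known here. Any part of age in the levels was not tested. Of the 6 Ctrl mice, 5 carry another strain label than the *Braf* V600E mice, and only the Ctrl mouse BG3 shares theirs.

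Libraries held 24742910 to 32262649 counts on genes, and the study lists 23 samples for the 15 mice, 8 of them named by 2 samples. Levels are given as CPM, counts scaled for library size after TMM normalization. The hepatocyte markers *Alb* (8.92e+04, 1.54e+05 and 1.44e+05 CPM in Ctrl, ABpIF/+ and ABpIF/F) and *Ttr* (4216, 2399 and 3419 CPM) were abundant in every group. *Icmt* was at 15.2 to 16.6 CPM in ABpIF/F and at 27.8 CPM or more in the other 12 mice. A score of 12 circadian clock genes (arbitrary units) lay between 5.24 and 9.88 in the 3 ABpIF/F mice and at 7.72 in the Ctrl mouse malpa387, and at -1.67 or below in the other 11 mice. Clock phase and the ABpIF/F genotype therefore cannot be told apart.

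The 7 genes have their best-known roles outside hepatocytes. *Tff3* encodes a trefoil peptide that goblet cells secrete together with mucins to protect and repair epithelia, and *Adm2* encodes adrenomedullin 2 (intermedin), a vasodilating peptide hormone of the calcitonin family. *Bex1* encodes a small X-linked adaptor protein of neurons and regenerating tissues. *Cacna1b* encodes the pore of the N-type voltage-gated calcium channel that triggers transmitter release. *Gldn* encodes gliomedin, a Schwann cell protein with an olfactomedin domain that gathers sodium channels at nodes of Ranvier. *Lrtm2* and *Lingo4* encode membrane proteins with leucine-rich repeats.

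The 7 genes lie on 7 chromosomes (GRCm38, GENCODE M21), so no pair are neighbors. *Tff3* is at chr17:31125306-31129646, *Bex1* at chrX:136213972-136215513, *Cacna1b* at chr2:24603887-24763152 and *Gldn* at chr9:54286486-54341786. *Lrtm2* is at chr6:119315133-119330766, *Lingo4* at chr3:94398517-94404501 and *Adm2* at chr15:89322720-89324731. On the opposite strand, *Bex1* shares 223 exonic bases with *Tceal7*, and *Lrtm2* lies wholly within *Cacna2d4* with 0 shared exonic bases. The libraries were stranded, but the strand setting of the counting is not given in the sources used here, so reads of such pairs may not have been told apart.

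Promoter sequence was at hand for 6 of the 7 genes (RefSeq, GRCm38.p6, 250 bases before to 50 after the start site, 7 windows), and not for *Tff3*. The 3 shown are those of the genes with the highest levels per length among the 6 (*Bex1*, *Gldn*) and of the pore subunit *Cacna1b*, cut to 30 bases after the start, written 5′ to 3′ with matches to the searched motifs in capitals.
Bex1, chrX:136215484-136215763, minus strand: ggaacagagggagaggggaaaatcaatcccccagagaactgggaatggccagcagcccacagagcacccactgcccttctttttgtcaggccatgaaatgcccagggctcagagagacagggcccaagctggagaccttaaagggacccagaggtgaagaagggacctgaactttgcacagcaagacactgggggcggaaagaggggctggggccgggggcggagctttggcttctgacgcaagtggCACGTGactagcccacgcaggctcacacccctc
Cacna1b, chr2:24763123-24763402, minus strand: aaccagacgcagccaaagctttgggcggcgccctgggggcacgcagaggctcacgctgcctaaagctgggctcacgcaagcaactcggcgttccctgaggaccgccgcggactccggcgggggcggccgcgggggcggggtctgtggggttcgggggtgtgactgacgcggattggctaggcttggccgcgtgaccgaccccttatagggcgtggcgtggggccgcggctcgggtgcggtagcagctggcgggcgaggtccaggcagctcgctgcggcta
Gldn, chr9:54286236-54286515, plus strand: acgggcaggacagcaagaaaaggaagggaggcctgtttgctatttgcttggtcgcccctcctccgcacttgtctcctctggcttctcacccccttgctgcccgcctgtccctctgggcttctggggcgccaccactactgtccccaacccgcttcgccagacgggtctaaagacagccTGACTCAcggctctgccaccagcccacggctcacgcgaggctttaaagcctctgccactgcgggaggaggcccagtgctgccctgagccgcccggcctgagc
The capitals mark an E-box (CACGTG) that starts 3 bases before the *Bex1* start site and an AP-1 site (TGANTCA) that starts 72 bases before that of *Gldn*. Over 32851 promoter windows of the same length, 7.15% held an E-box and 7.81% an AP-1 site on either strand. None of the 7 windows held a CRE (TGACGTCA, 1.79% of all windows), the ETS core CGGAAGT (6.42%), the SOX site AACAAT (10.7%), the C/EBP-ATF site TGATGNAA (3.97%) or TATAAA (13.6%). The left part of the RE1 element that the repressor REST reads, TTCAGCACC (0.371%), and its right part (0.521%) were not in the windows either. No motif was shared between 2 of the genes. The *Cacna1b* window was the richest in CpG, with 35 CpG and a ratio of observed to expected CpG of 0.922, against a median of 0.384 over all windows. The other 6 windows had ratios of 0.220 to 0.622.

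All 7 genes were higher in every ABpIF/+ mouse than in every Ctrl mouse. The same held for 7.78% of all genes (8.13% were below in every mouse), and since the genes were chosen on this contrast nothing is read from the count. In bulk tissue, fewer cells that express a gene and less of its RNA per cell cannot be told apart. In ABpIF/F, 6 of the 7 were above every Ctrl mouse (9.27% of all genes). The exception was *Lingo4*, which was below every Ctrl mouse (7.85% of all genes). Its highest count in ABpIF/F and its lowest in Ctrl were both 3, so this order rests on library scaling. The description as silent in Ctrl held best for *Cacna1b* and *Adm2*, the genes of the 7 with at most 3 counts in every Ctrl mouse. *Gldn*, *Bex1*, *Lrtm2* and *Tff3* had highest Ctrl counts of 4, 6, 13 and 36, at means of 0.0634 to 0.249 CPM. *Lingo4* had 3 to 19 counts in each Ctrl mouse and a mean of 0.321 CPM. Of the 10846 genes with at most 3 counts in every Ctrl mouse, 19 had a mean of at least 1 CPM in ABpIF/+, and *Cacna1b* was the 1 of the 7 among them. High counts with *Braf* V600E were not reached by *Adm2*, which had at most 39 counts in any mouse, nor by *Lingo4*, with at most 97. Of the 14163 genes with a Ctrl mean under 0.5 CPM, 20 had a mean of at least 10 CPM in ABpIF/+, and *Tff3*, *Bex1*, *Cacna1b*, *Gldn* and *Lrtm2* were 5 of these 20. These limits were set after the values were seen.

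**Figure D1:**
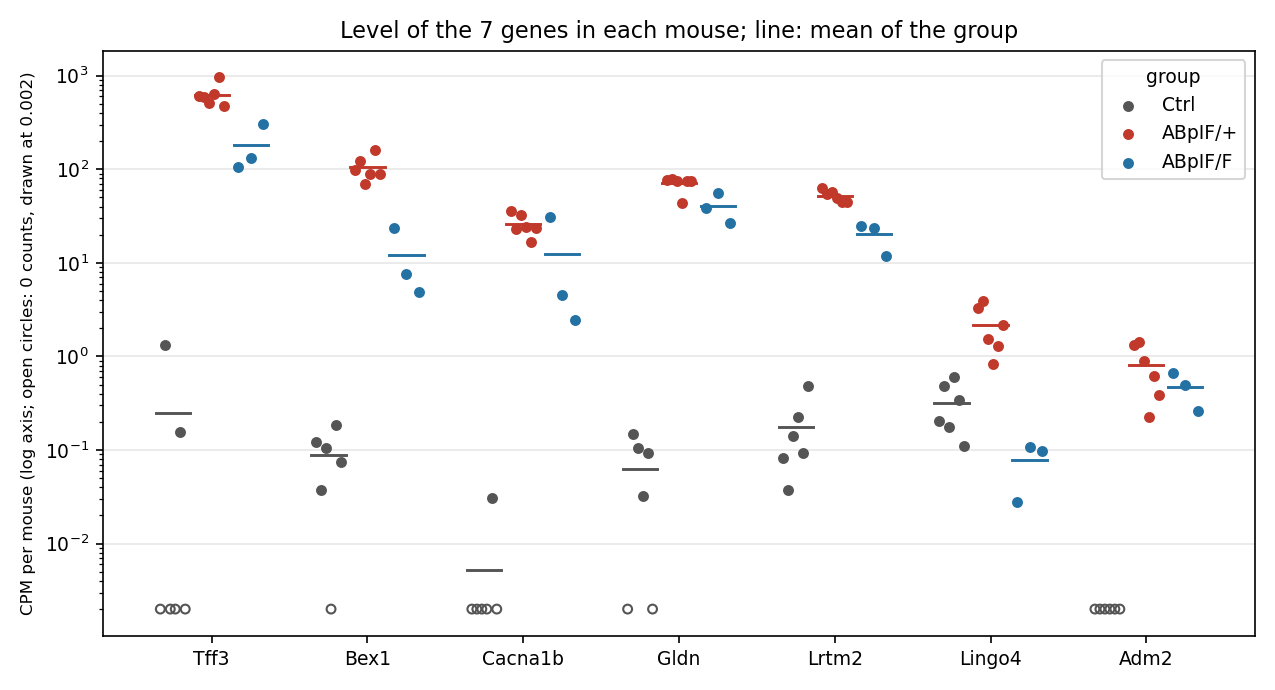
CPM of the 7 genes in each of the 15 mice on a log axis, by group, with the group mean as a line and libraries with 0 counts as open circles. *Tff3* is the highest, with all ABpIF/+ mice at 477 CPM or more. *Lingo4* is the one gene whose ABpIF/F mice, with 1 to 3 counts each, lie below the Ctrl mice.

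*Tff3*, the secreted trefoil peptide, had the highest level per exonic length of the 7 genes in both *Braf* V600E groups. Its counts were 0 at the lowest, 0 at the median and 36 at the highest in the 6 Ctrl mice, and 13181, 15866 and 26082 in the 6 ABpIF/+ mice. In the 3 ABpIF/F mice they were 3694 in BG90, 9442 in BG183 and 3831 in BG38. The groups did not overlap, and ABpIF/F lay between Ctrl and ABpIF/+. Of the 41 *Tff3* counts in Ctrl, 36 came from malpa387, which is also the Ctrl mouse with the high clock score, and 4 Ctrl mice had none. The mean was 0.249 ± 0.538 CPM (SD, n = 6) in Ctrl, 629 ± 173 (n = 6) in ABpIF/+ and 182 ± 110 (n = 3) in ABpIF/F. The fitted log2 fold change from Ctrl was 11.31 in ABpIF/+ and 9.52 in ABpIF/F. Without malpa387 these values were 13.97 and 12.18, and with the strain label as a covariate 17.14 and 15.35, where BG3, the only Ctrl mouse of the label of the *Braf* V600E mice, had 0 counts.

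In ABpIF/+ vs ABpIF/F the log2 fold change of *Tff3* was 1.79 ± 0.70 (SE, 95% interval 0.42 to 3.15), which did not pass the threshold (edgeR quasi-likelihood test, adjusted p = 0.103). With only these 2 groups in the fit the adjusted p was 0.00533, and without malpa387 it was 0.00355, with a range of 0.00355 to 0.389 over the alternatives. With the clock score as a covariate the log2 fold change was 4.35 and the adjusted p 0.0795. An exact permutation test of log2 CPM over the 9 mice gave p = 0.0119 (two-sided), the smallest that its 84 arrangements allow. Every ABpIF/+ mouse was above every ABpIF/F mouse.

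*Adm2*, the peptide hormone of the calcitonin family, had the lowest median count of the 7 genes in ABpIF/+. It had 0 counts in 6 of 6 Ctrl mice. In ABpIF/+ its counts were 6 at the lowest, 20 at the median and 39 at the highest, and in ABpIF/F 14 in BG90, 8 in BG183 and 24 in BG38. Both *Braf* V600E groups lay above Ctrl, and they overlapped each other. Against a floor of 3 counts in each Ctrl library, *Adm2* was at least 7.58-fold higher in ABpIF/+ and at least 4.44-fold higher in ABpIF/F, where floors cover counting error only. The ABpIF/+ and ABpIF/F means were 0.811 ± 0.489 and 0.475 ± 0.203 CPM (SD). They differed by less than the SD within ABpIF/+ and by more than the SD within ABpIF/F (log2 fold change 0.76, 95% interval -0.44 to 1.95, edgeR adjusted p = 0.511).

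*Bex1*, the X-linked adaptor gene, showed one of the clearest differences between the *Braf* V600E groups. Its counts were 0, 2.5 and 6 (lowest, median, highest) in Ctrl and 1820, 2833 and 4355 in ABpIF/+. In ABpIF/F they were 211 in BG90, 150 in BG183 and 861 in BG38. The 3 groups did not overlap, and BG38 stood above the other ABpIF/F mice. The means were 0.0879 ± 0.0660 CPM (SD, n = 6) in Ctrl, 105 ± 32.2 (n = 6) in ABpIF/+ and 12.1 ± 10.3 (n = 3) in ABpIF/F, and the fitted log2 fold changes from Ctrl were 10.15 and 7.03. *Bex1* was 8.64-fold higher in ABpIF/+ than in ABpIF/F, 3.11 ± 0.48 (SE) on the log2 scale, which passed with an adjusted p of 0.000537 in edgeR. The exact permutation test gave p = 0.0119, the smallest possible. Without BG38 the log2 fold change was 4.08 (adjusted p = 5.56e-06 in edgeR), and that of ABpIF/F from Ctrl 6.07. With the clock score as a covariate the log2 fold change was 3.47 and the adjusted p 0.400, the highest of the alternatives, whose lowest was 4.81e-08. *Tceal7*, whose exons overlap *Bex1*, had at most 3 counts in any mouse.

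*Cacna1b*, the pore of the N-type calcium channel, had a single count in 1 of the 6 Ctrl mice, malpa459, and 0 in the other 5. In ABpIF/+ its counts were 453 at the lowest, 689 at the median and 1059 at the highest. In ABpIF/F they were 126 in BG90, 76 in BG183 and 1109 in BG38. ABpIF/+ and ABpIF/F overlapped because of BG38 alone, since BG90 and BG183 were below every ABpIF/+ mouse. With 1 count in Ctrl, the ratio of the pooled rates was 4433 in ABpIF/+ (exact 95% counting interval 795 to 175142) and 2348 in ABpIF/F (421 to 92829). Of the 1311 counts in ABpIF/F, 1109 were from BG38, and without this mouse the fitted log2 fold change from Ctrl was 8.40 in place of 10.27. The mean was 26.1 ± 7.06 CPM (SD, n = 6) in ABpIF/+ and 12.6 ± 15.8 (n = 3) in ABpIF/F.

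The log2 fold change of *Cacna1b* in ABpIF/+ vs ABpIF/F came to 1.04 ± 0.59 (SE), with a lower 95% bound of -0.12, and did not pass (edgeR adjusted p = 0.296). The exact permutation test gave p = 0.0595. Without BG38 the log2 fold change rose to 2.90 with an adjusted p of 3.90e-06, and with the clock score as a covariate it was 0.41 with an adjusted p of 1. Over the alternatives the adjusted p ranged from 3.90e-06 to 1. *Cacna1b* was the gene of the 7 whose ABpIF/F mice differed most, by 12.4-fold between BG183 and BG38.

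*Gldn*, which encodes gliomedin, differed least between the *Braf* V600E groups in relative terms among the genes above 10 CPM. Its counts were 0, 2 and 4 (lowest, median, highest) in Ctrl and 1157, 1998 and 2331 in ABpIF/+. In ABpIF/F they were 1574 in BG90, 815 in BG183 and 1385 in BG38. The mice of ABpIF/+ lay close together except BG55, which had the lowest value and overlapped with ABpIF/F. The mean was 70.8 ± 13.4 CPM (SD, n = 6) in ABpIF/+ and 40.4 ± 14.9 (n = 3) in ABpIF/F, with fitted log2 fold changes from Ctrl of 10.00 and 9.19. With the strain label as a covariate these were 13.99 and 13.17, where BG3 had 0 counts. Between the *Braf* V600E groups it differed by 0.81 ± 0.25 (SE, 95% interval 0.32 to 1.30) on the log2 scale, and neither its size nor its edgeR adjusted p of 0.0299 passed. Without BG90 it was 1.12 with an adjusted p of 0.00671, which passed, and with the clock score as a covariate 3.03 with an adjusted p of 0.0149, which did not. The adjusted p was between 0.00671 and 0.141 over the alternatives, and the exact permutation test gave p = 0.0238.

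*Lrtm2*, a membrane protein gene with leucine-rich repeats, was the most even of the 7 within ABpIF/+, with a coefficient of variation of 14.3%. Its counts were 1, 3.5 and 13 (lowest, median, highest) in Ctrl and 1216, 1370.5 and 1868 in ABpIF/+. In ABpIF/F they were 665 in BG90, 359 in BG183 and 903 in BG38. No groups overlapped, and every ABpIF/F mouse was between the Ctrl and the ABpIF/+ mice. The means were 0.177 ± 0.164 CPM (SD, n = 6), 52.4 ± 7.48 (n = 6) and 20.2 ± 7.34 (n = 3), and the fitted log2 fold changes from Ctrl were 8.18 and 6.80 (9.24 and 7.87 with the strain label as a covariate). *Lrtm2* was higher in ABpIF/+ than in ABpIF/F by 1.38 ± 0.27 (SE) on the log2 scale, which passed with an adjusted p of 0.00164 in edgeR, and the exact permutation p was 0.0119. With the clock score as a covariate it was 1.30 with an adjusted p of 0.584, the highest of the alternatives, whose lowest was 2.13e-06.

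The gene around *Lrtm2*, *Cacna2d4*, which encodes an auxiliary calcium channel subunit, had a total of 1 count in Ctrl, 317 in ABpIF/+ and 89 in ABpIF/F. Its ratio of pooled rates to Ctrl was 326 in ABpIF/+ (exact 95% counting interval 58.1 to 12928) and 159 in ABpIF/F (27.9 to 6367). Both genes of this pair were thus higher with *Braf* V600E. Whether reads of one were counted for the other was not tested.

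*Lingo4*, the other leucine-rich repeat gene, had more counts in ABpIF/+ than in Ctrl, while in ABpIF/F its counts were at or under the lowest Ctrl count. Its counts were 3 at the lowest, 8 at the median and 19 at the highest in Ctrl, and 22, 54 and 97 in ABpIF/+. In ABpIF/F they were 3 in BG90, 3 in BG183 and 1 in BG38. The ABpIF/F mice had no more than 0.107 CPM, just under the lowest Ctrl mouse at 0.112. Both values come from 3 counts, so library scaling alone sets their order. The mean was 0.321 ± 0.194 CPM (SD, n = 6) in Ctrl, 2.17 ± 1.20 (n = 6) in ABpIF/+ and 0.0776 ± 0.0435 (n = 3) in ABpIF/F. From Ctrl the fitted log2 fold change was 2.72 in ABpIF/+ and -2.05 in ABpIF/F (3.38 and -1.40 with the strain label as a covariate). The pooled rate in ABpIF/F, from 7 counts, was 0.224 of that in Ctrl (exact 95% counting interval 0.0861 to 0.492). This interval covers counting error only and not the spread between mice, so it is not a test of the difference.

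In ABpIF/+ vs ABpIF/F the log2 fold change of *Lingo4* came to 4.78 ± 0.70 (SE), or 27.4-fold, the largest of the 7 genes, with an adjusted p of 5.47e-05 in edgeR. The exact permutation test gave p = 0.0119. It passed under every alternative run, with adjusted p between 2.00e-09 and 0.00988, the clock score covariate included. That score separates the 2 groups fully, so the fit with it cannot tell clock phase from genotype. The difference rests on low counts, 1 to 3 in each ABpIF/F mouse. Only in ABpIF/+ was *Lingo4* above Ctrl, and the genes were chosen for high counts with *Braf* V600E. The difference and its p-values are therefore not free of the choice.

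Of the 7 genes, *Bex1*, *Lrtm2* and *Lingo4* were called higher in ABpIF/+ than in ABpIF/F (adjusted p under 0.01 and at least 2-fold), which is 3 of 7 where 1.76% of all 27179 genes were called in that direction and 7.24% in either. No gene of the 7 was called lower (5.49% of all genes). *Tff3*, *Bex1*, *Lrtm2* and *Lingo4* were above every ABpIF/F mouse in every ABpIF/+ mouse, against 9.15% of all genes, and none was below them all (9.54%). The genes were chosen for high counts with *Braf* V600E, so their level in ABpIF/+ is not free of the choice, and the share is not evidence about the group of genes. The p-values of the single genes carry the same limit. With the clock score as a covariate, only *Lingo4* of the 3 was called, where 95 of all genes were called in either direction. Clock score and genotype cannot be told apart here, so nothing is read from this fit.

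**Figure D2:**
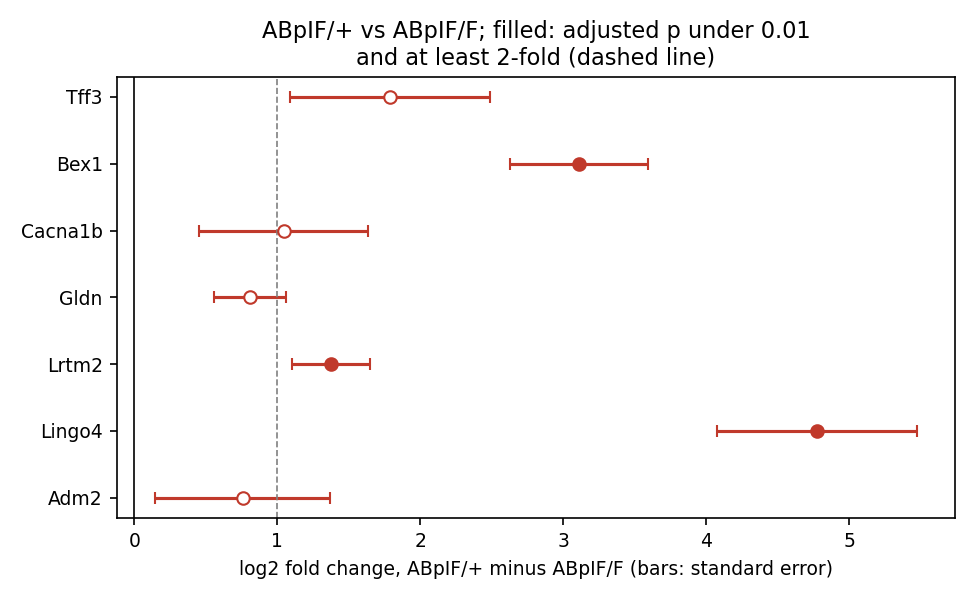
Log2 fold change of the 7 genes in ABpIF/+ vs ABpIF/F (x axis) with its standard error as bars, positive where ABpIF/+ is higher. The filled points are *Bex1* at 3.11, *Lrtm2* at 1.38 and *Lingo4* at 4.78, which passed the threshold, and the 4 open points did not.

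Levels between genes were compared as CPM per kilobase of merged exons (GENCODE M21, which may differ from the annotation used for counting). In ABpIF/+ the order was *Tff3* at 1276 ± 351 (SD, n = 6), *Bex1* at 88.6 ± 27.2, *Gldn* at 15.2 ± 2.89, *Lrtm2* at 12.8 ± 1.82, *Cacna1b* at 2.62 ± 0.711, *Adm2* at 0.625 ± 0.377 and *Lingo4* at 0.595 ± 0.328. The ranges of *Gldn* and *Lrtm2* overlapped, as did those of *Adm2* and *Lingo4*, and the other neighbors in the order did not. The order in ABpIF/F was the same, from *Tff3* at 369 ± 223 to *Lingo4* at 0.0213 ± 0.0119 (n = 3), but there only *Tff3* at the top and *Lingo4* at the bottom were separate from their neighbors. In Ctrl the ranges of all neighbors overlapped.

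Mice did not rank alike across the 7 genes. Within ABpIF/+, BG88 had the highest *Tff3* and *Bex1* and the lowest *Cacna1b* and *Lrtm2*. BG55 had the lowest *Gldn*, *Lingo4* and *Adm2*, and BG31 the highest of the same 3 genes. Within ABpIF/F, BG38 was highest for *Bex1*, *Cacna1b*, *Lrtm2* and *Adm2* and lowest for *Tff3* and *Lingo4*, while BG183 was lowest for 5 genes and highest for *Tff3*.

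Genes of the same families were then examined, from lists by family. Of 78 such genes, 17 (21.8%) were called in ABpIF/+ vs Ctrl, 11 higher and 6 lower, where 10.0% of all genes were called (4.69% higher, 5.35% lower). In ABpIF/F vs Ctrl 14 (17.9%) were called, 12 higher and 2 lower, where 6.93% of all genes were called (4.55% higher, 2.38% lower). In ABpIF/+ vs ABpIF/F 13 (16.7%) were called, 3 higher and 10 lower in ABpIF/+, where 7.24% of all genes were called. Their median log2 fold changes were 0, 0.57 and -0.24, against medians of 0 over all genes. Of the 78 genes, 7 had no counts in any mouse and 20 had at most 3 in every mouse. With the strain label as a covariate, which leaves BG3 as the only control of that label, 8 genes were called in ABpIF/+ vs Ctrl and 5 in ABpIF/F vs Ctrl. With the clock score as a covariate, 4 were called in ABpIF/F vs Ctrl and 0 in ABpIF/+ vs ABpIF/F (edgeR, 12 at an unadjusted p under 0.05, and 15 by DESeq2 without the covariate), so that each of the 13 calls of related genes between the *Braf* V600E groups was lost. Over all 27179 genes, 580 and 95 were called in these 2 comparisons, against 1883 and 1969 without the covariate. In the second, 4700 of all genes were at an unadjusted p under 0.05. Calls over all genes also fell with the strain label. The losses are therefore not particular to the related genes.

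The Bex and Tceal genes, which encode small adaptor and elongation factor-like proteins, held the most calls against Ctrl. Of 11 measured beside *Bex1*, 7 were called higher in ABpIF/+ and 6 in ABpIF/F than in Ctrl, and 0 were called lower in either (edgeR, also 0 at an unadjusted p under 0.05 and 0 by DESeq2). The median log2 fold change was 1.19 in ABpIF/+ and 1.74 in ABpIF/F, or 1.17 and 1.65 with genes without counts set at their bound. *Tceal5* had a total of 4 counts in the 6 Ctrl mice. It reached 2782 counts in ABpIF/+, a ratio of pooled rates of 716 (exact 95% counting interval 279 to 2629), and 327 in ABpIF/F, a ratio of 146 (56.7 to 541) (edgeR adjusted p = 4.80e-11 and 3.98e-08). *Bex2* was at 0.0792 ± 0.0731 CPM in Ctrl, 6.60 ± 2.02 in ABpIF/+ and 5.17 ± 3.02 in ABpIF/F (log2 fold changes 6.26 and 5.91, adjusted p = 3.12e-09 and 5.00e-08). *Bex4* rose by 4.17 and 2.94 on the log2 scale (adjusted p = 6.69e-10 and 1.15e-06) and *Bex3* by 3.53 and 2.57 (adjusted p = 9.19e-08 and 3.31e-05).

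*Tceal8* and *Tceal9*, already at 17.3 and 12.9 CPM in Ctrl, rose by 1.19 and 1.17 on the log2 scale in ABpIF/+ (adjusted p = 4.36e-07 and 1.80e-05), and *Tceal9* by 1.21 in ABpIF/F. *Tceal7* was called in ABpIF/+ vs Ctrl on at most 3 counts in any mouse, so no fold is given, and it was not called in DESeq2 or without any one of the 15 mice. Between the *Braf* V600E groups, *Tceal5* (log2 fold change 2.32 ± 0.35 (SE), adjusted p = 0.000130) and *Bex4* (1.23 ± 0.32, adjusted p = 0.00773) were higher in ABpIF/+, as *Bex1* was. *Tceal1* was lower (-1.78 ± 0.41, adjusted p = 0.00313) and was called higher in ABpIF/F than in Ctrl (1.65, adjusted p = 0.00524). *Bex2*, *Bex4*, *Tceal5* and *Cacna2d4* were still called in both comparisons with Ctrl with the strain label or with the clock score as a covariate.

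**Figure D3:**
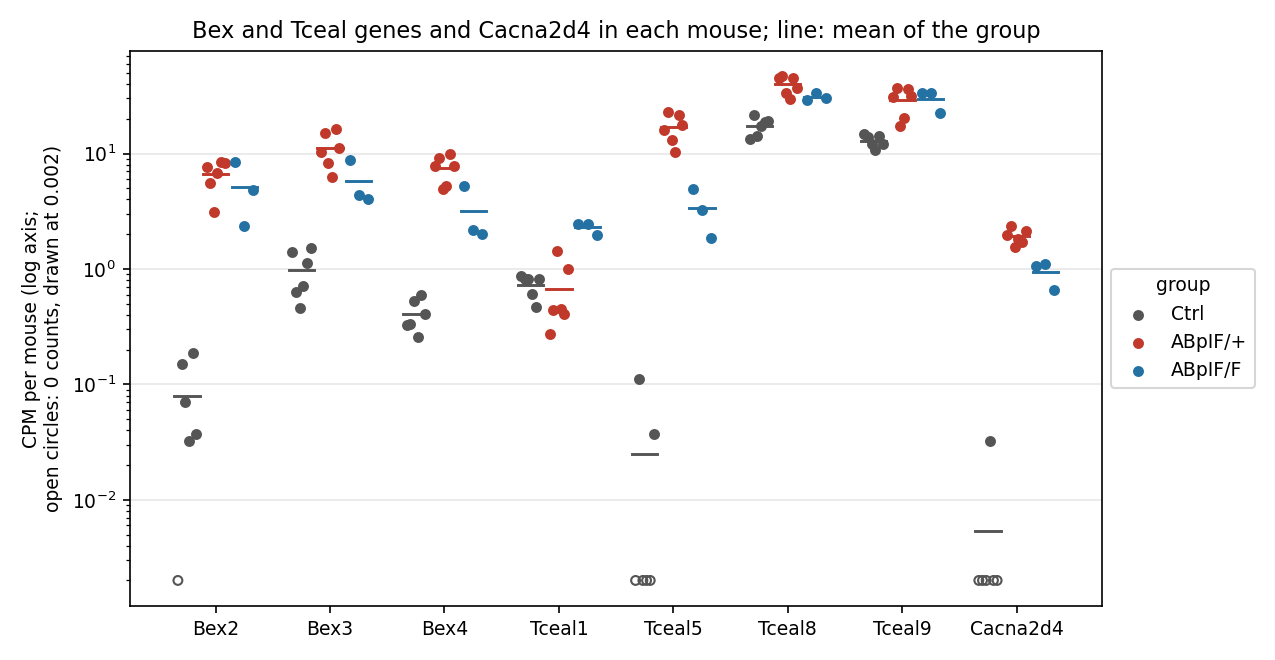
CPM of 7 Bex and Tceal genes and *Cacna2d4* in each of the 15 mice on a log axis, by group, with the group mean as a line and libraries with 0 counts as open circles. *Tceal5* and *Bex2* are at 0.187 CPM or less in every Ctrl mouse, while *Tceal8* and *Tceal9* are at 10.6 CPM or more in every Ctrl mouse.

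Among 17 other subunits of voltage-gated calcium channels, 3 were called higher in ABpIF/+ and 4 in ABpIF/F than in Ctrl, and 0 lower (edgeR). At an unadjusted p under 0.05, 3 were lower in ABpIF/+ and 2 in ABpIF/F, and DESeq2 called 1 and 0 lower. Beside *Cacna2d4*, these were the L-type pore genes *Cacna1c* (log2 fold change 2.88 and 3.72, adjusted p = 0.000666 and 0.000243) and, in ABpIF/+, *Cacna1d* (1.48, adjusted p = 9.21e-08). In ABpIF/F *Cacna1d* differed from Ctrl by 0.74, under the 2-fold limit (adjusted p = 0.00448). The beta subunit genes *Cacnb1* (1.78, adjusted p = 0.00501) and *Cacnb3* (2.26, adjusted p = 0.000968) were called in ABpIF/F. *Cacnb1* and *Cacna2d1* were called lower in ABpIF/+ than in ABpIF/F (-2.37 and -2.55, adjusted p = 0.000588 and 0.000981).

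Of 11 genes for gliomedin's partners and other olfactomedin proteins, 3 were called lower in ABpIF/+ than in Ctrl and 0 higher (edgeR, 1 at an unadjusted p under 0.05 and 0 by DESeq2). In ABpIF/+ vs ABpIF/F 5 were called lower and 0 higher (also 0 higher at an unadjusted p under 0.05 and by DESeq2). *Olfm1* (-1.16, adjusted p = 0.000227), *Olfm3* (-2.75, adjusted p = 0.000228) and *Olfml3* (-1.86, adjusted p = 0.000214) fell in ABpIF/+ vs Ctrl. *Olfm3* also fell in ABpIF/F vs Ctrl (-2.76, adjusted p = 0.00435), where *Olfm2* (3.26, adjusted p = 8.87e-05) and *Olfml2b* (2.10, adjusted p = 0.00702) rose. *Olfm1*, *Olfm2*, *Olfml2a*, *Olfml2b* and *Olfml3* were the 5 that were lower in ABpIF/+ than in ABpIF/F.

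Of 19 leucine-rich repeat membrane protein genes, most had few or no counts, and 12 had at most 3 counts in every Ctrl and ABpIF/+ mouse. *Lrtm1*, the paralog of *Lrtm2*, was at 18.4 ± 9.70 CPM in Ctrl (SD, n = 6), 4.57 ± 2.33 in ABpIF/+ and 1.90 ± 0.796 in ABpIF/F. Its log2 fold changes from Ctrl were -2.01 and -3.29 (adjusted p = 0.00211 and 0.00128). *Lrfn4* fell by 2.19 in ABpIF/+ (adjusted p = 2.31e-05). *Lrrtm3*, which encodes a synaptic adhesion protein, had 1 count in Ctrl, 62 in ABpIF/+ and 1 in ABpIF/F. Of the 62, 28 were in BG30, while BG55 had 2 and BG175 had 3. The ratio of pooled rates of *Lrrtm3* was 63.8 for ABpIF/+ to Ctrl (exact 95% counting interval 11.0 to 2561) and 35.6 for ABpIF/+ to ABpIF/F (6.16 to 1430). *Lingo1* and *Lrfn4* were called lower in ABpIF/+ than in ABpIF/F (-3.18 and -1.79, adjusted p = 0.00859 and 0.00182).

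Few genes of the remaining families passed. *Tff1* was at 5.09 ± 1.49, 4.87 ± 1.41 and 4.17 ± 2.71 CPM in Ctrl, ABpIF/+ and ABpIF/F, and neither it nor *Tff2* was called in any of the 3 comparisons (edgeR, 0 also at an unadjusted p under 0.05 and by DESeq2). Of 9 genes for adrenomedullin and calcitonin peptides and their receptors, 1 was called in the 3 comparisons. This was *Calcrl*, a receptor gene of this list, which fell by 1.37 on the log2 scale in ABpIF/+ vs Ctrl (edgeR adjusted p = 0.00232). Of 9 genes for the neuronal gene repressor REST and its corepressors, 0 were called in each of the 3 comparisons (edgeR, 4, 3 and 3 at an unadjusted p under 0.05, and 0 by DESeq2). *Rest* itself was at 7.11 ± 3.01, 6.83 ± 2.53 and 9.80 ± 1.47 CPM.

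**Figure D4:**
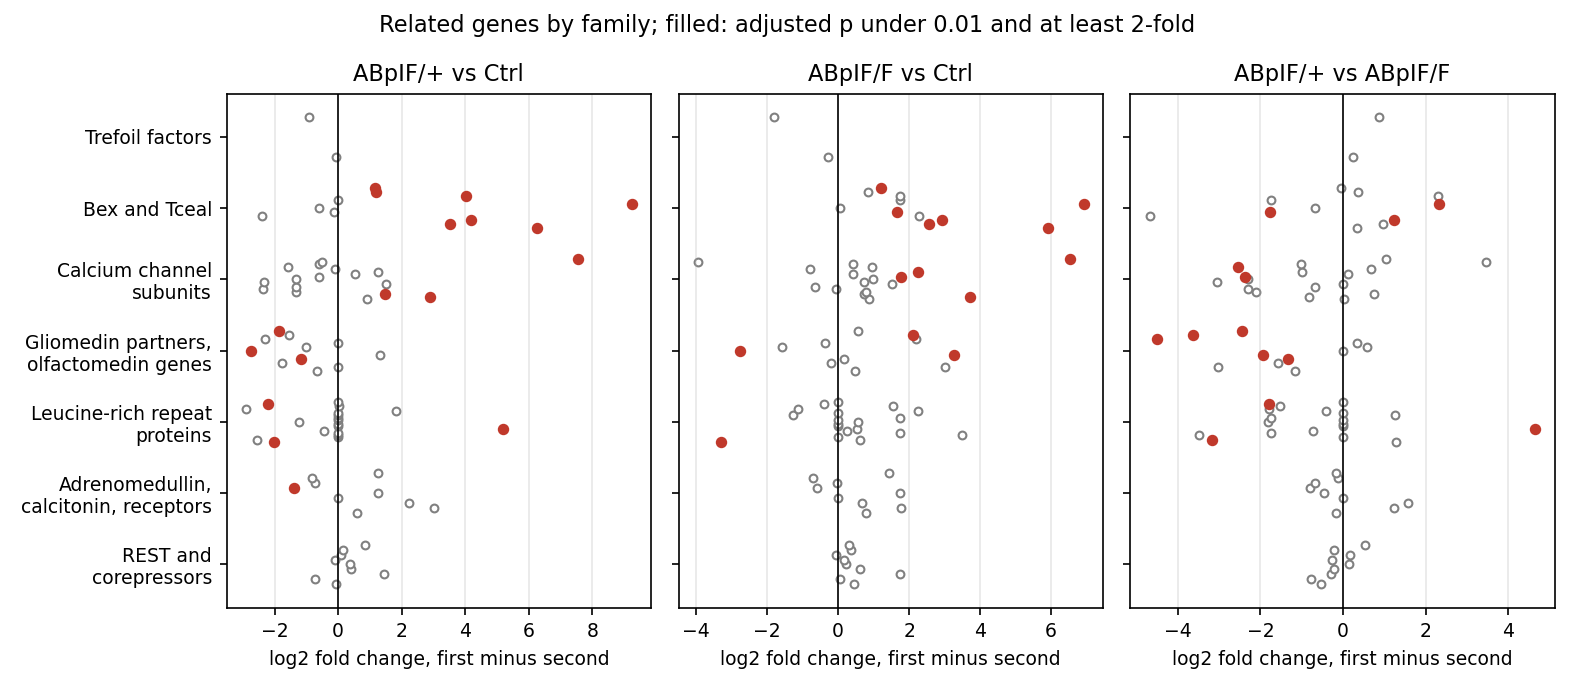
Log2 fold changes (x axes) of 78 related genes by family in the 3 comparisons, positive where the first group is higher, with called genes filled. The Bex and Tceal genes hold 7 of the 11 filled points above 0 in ABpIF/+ vs Ctrl and 6 of the 12 in ABpIF/F vs Ctrl, and the olfactomedin genes hold 5 of the points below 0 in ABpIF/+ vs ABpIF/F.

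Among markers of the cells in which several of the 7 genes are best known, those of goblet and mucous cells had the lowest sums. The 8 goblet and mucous cell markers summed to 0.149 to 0.530 CPM in Ctrl, 0.524 to 1.11 in ABpIF/+ and 0.443 to 0.857 in ABpIF/F, with the defining *Muc2* at a mean of 0.235 and *Fcgbp* at 0.469 CPM in ABpIF/+. None of the 8 was called in any comparison (edgeR, 2, 0 and 1 at an unadjusted p under 0.05, and 0 by DESeq2). Of the Schwann cell markers, *Sox10* had 0 counts in all mice, and the 8 summed to 2.43 to 4.98 CPM in ABpIF/+, as in Ctrl (2.42 to 4.45), and to 3.98 to 21.2 in ABpIF/F. *Mbp* and *Ncam1*, named after their values were seen, were called higher in ABpIF/F than in either other group. Of the neuron markers, *Snap25* was at 0 in Ctrl and ABpIF/+ and at 0.00923 CPM in ABpIF/F. *Syt1*, at 23.0 CPM in Ctrl, fell to 4.52 in ABpIF/+, so that the 8 summed to 14.3 to 30.1 CPM in Ctrl, 3.63 to 5.81 in ABpIF/+ and 11.9 to 17.1 in ABpIF/F. In ABpIF/+ vs Ctrl *Syt1* alone was called lower and 0 higher (edgeR, 1 lower and 2 higher at an unadjusted p under 0.05). In ABpIF/F vs Ctrl 0 were called lower and 1 higher, on 37 counts of which 31 were in 1 mouse.

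Of the neuroendocrine markers, the defining *Chga* had 0 counts in all mice and *Chgb* was at most at 0.130 CPM on average in a group. The other genes of this list are not reported here, so nothing is read about the list from *Chga* and *Chgb*.

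Markers of other liver cells moved with the groups. The 10 cholangiocyte markers summed to 51.3 to 89.4 CPM in Ctrl, 55.5 to 177 in ABpIF/+ and 240 to 1204 in ABpIF/F, with the highest value in BG38, and 6 of the 10 were called lower in ABpIF/+ than in ABpIF/F, the defining *Krt19* included but not *Krt7*. The 7 stellate cell and fibroblast markers summed to 164 to 225 CPM in Ctrl, 39.7 to 84.2 in ABpIF/+ and 149 to 253 in ABpIF/F, and 7 of 7, with the defining *Dcn* and *Lrat*, were lower in ABpIF/+ than in Ctrl. The 6 fetal and tumor hepatocyte markers summed to 4.72 to 9.27 CPM in Ctrl, 416 to 685 in ABpIF/+ and 181 to 639 in ABpIF/F, and 4 and 5 of them were called higher than in Ctrl, the defining *Afp* and *Gpc3* among both. The 6 hepatocyte markers summed to 90877 to 124755 CPM in Ctrl, 163227 to 233520 in ABpIF/+ and 121377 to 212670 in ABpIF/F, and 2 and 1 of them were called higher than in Ctrl. The 7 pancreatic acinar markers summed to 12.4 to 28.6, 11.2 to 15.1 and 19.3 to 28.2 CPM, with 1 called, lower in ABpIF/+ than in ABpIF/F. Their defining markers *Cela1* and *Cpa1* were at 18.8, 11.8 and 23.7 and at 0, 0.0184 and 0 CPM in the 3 groups. The part of any of these cells in the levels of the 7 genes was not tested.

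**Figure D5:**
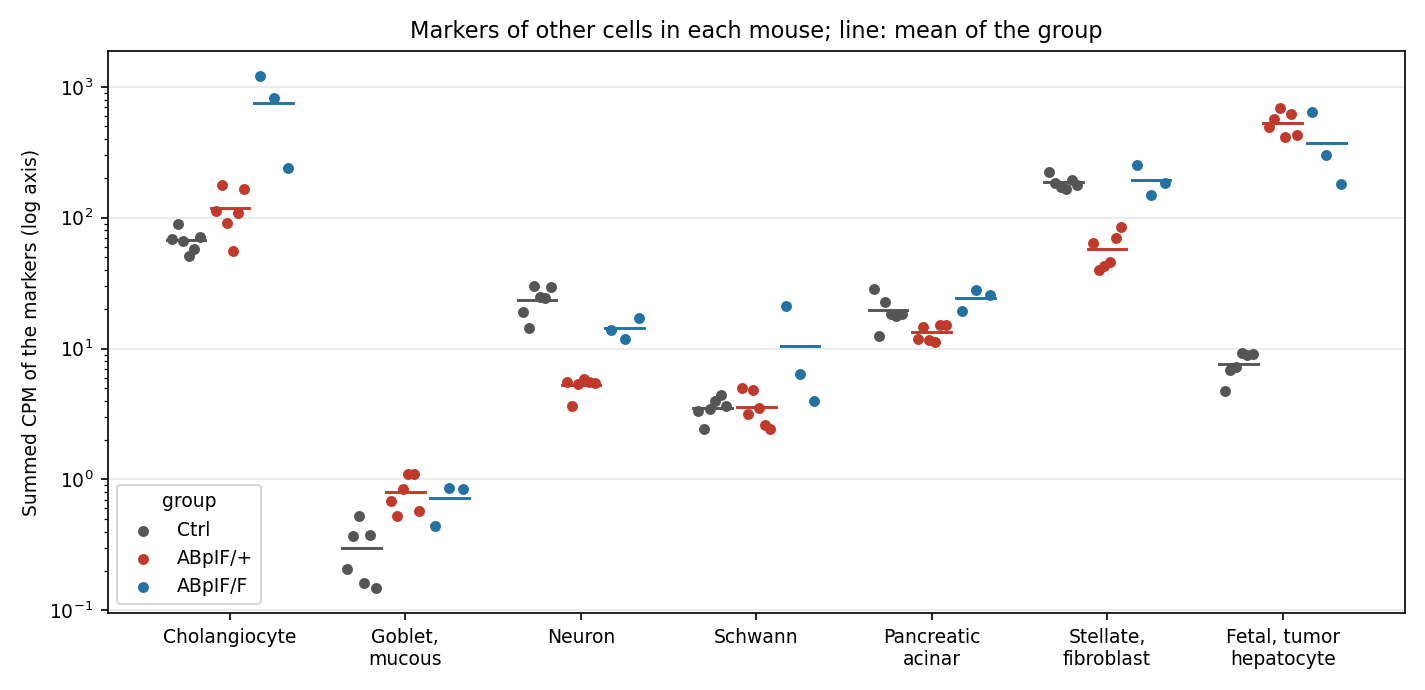
Summed CPM of 7 marker lists, without those of hepatocytes and neuroendocrine cells, in each of the 15 mice on a log axis, by group, with the group mean as a line. The goblet cell sum stays at 1.11 CPM or less in every mouse, and the fetal and tumor hepatocyte sum is above 180 CPM in every *Braf* V600E mouse.

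The genes whose levels followed each of the 7 most closely were sought among 12205 genes with at least 1 CPM, by Pearson's r of log2 CPM over the 9 *Braf* V600E mice. These 9 mice hold both groups, so that r includes the difference between them, and it is given as a description. For *Tff3* they were *Ptpmt1* (r = 0.99), *Nudt6* and *Pglyrp2*, for *Bex1* *AA986860* (0.99), *Nap1l1* and *Wtip*, and for *Cacna1b* *Peg3* (0.98), *Foxj2* and *Tent5a*. For *Gldn* they were *Usp46* (0.96), *Slc41a3* and *Susd1*, for *Lrtm2* *Polr1a* (0.97), *Nrg4* and *Cyp3a16*, for *Lingo4* *Gm17491* (0.99), *Slc38a9* and *Arglu1*, and for *Adm2* *Tbc1d31* (0.95), *Usp35* and *Ogg1*. The 21 names are all different. By Spearman's rho, 4 of the 21 would have been named.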

How the data were processed

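Liver RNA of 15 female mice was analysed. The authors made stranded mRNA libraries, aligned paired-end reads with HISAT2 to mm10 (GRCm38) and assigned them to genes using featureCounts 2.0.8 (version per the submitters' processing notes). The deposited values are raw counts per gene and mouse, without normalization, in 15 columns. The annotation and strand setting of the counting are not given in the sources used here. A second deposited table holds identical counts in its 10 named columns (0 of 271790 values differ). Its other 5 columns, headed only by a number, were not used, nor were columns of the authors' own comparisons, which hold fold changes and p-values.

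Counts of all 27179 genes were scaled by TMM and fitted in edgeR 4.0.16 (R 4.3.3) with 1 quasi-likelihood model of 3 groups, robust dispersions and the earlier form of the test. P-values were adjusted by Benjamini-Hochberg over all genes, and a gene was called where this fell under 0.01 and the change was at least 2-fold. Standard errors were derived from the fold change and the F statistic. Log2 CPM used a prior count of 2. The test was tried on simulated data. DESeq2 1.42.0 was an alternative, as were other scalings, filters and covariates, and leaving out each mouse. Counting intervals and floors (3 counts per library) cover counting error only. Each column was given its group through its mouse name and that mouse's genotype label.

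The 7 genes and all lists were chosen with earlier results of these data known. Named genes are the 7, every related gene called in a comparison, the first 2 of each marker list (1 of these and 1 summed list are not reported here), and for each of the 7 the 3 genes most correlated with it, with *Icmt* and *Alb* as checks. Promoters came from RefSeq.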

Additional observations from a re-analysis of the deposited data

Results flagged for a closer look

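Of 13 groups of 6 mice checked for a mouse far from the others (Dixon's criterion), 4 held one, and chance gives about 1 in 20. The *Cacna1b* group among these 4 met the criterion by construction, since 5 of its 6 mice are at 0. *Tff3* was at 1.34 CPM in the Ctrl mouse malpa387, against 0.155 CPM in the next Ctrl mouse. In ABpIF/+, BG88 had 961 CPM of *Tff3*, against 635 CPM in the next mouse. The *Cacna1b* level of the Ctrl mouse malpa459, 0.0311 CPM, is a single count. BG55 had the lowest *Gldn* of the ABpIF/+ mice, at 43.6 CPM, against 74.5 CPM in the next.

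For 3 genes the differences from Ctrl were unequal in ABpIF/+ and ABpIF/F by the test of ABpIF/+ vs ABpIF/F itself, since both share the same Ctrl mice. The difference of the log2 fold changes was 3.11 for *Bex1*, 1.38 for *Lrtm2* and 4.78 for *Lingo4*.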

How the results depend on the processing

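Called genes among the 7 in ABpIF/+ vs ABpIF/F numbered 3, and 1 with the clock score as a covariate. Leaving out single mice gave 3 to 4. Without BG38 *Cacna1b* was added, without BG90 *Gldn* and without malpa387 *Tff3*. Called related genes in that comparison numbered 13, but 0 with the clock score as a covariate (edgeR, 12 at an unadjusted p under 0.05, against 15 by DESeq2 without the covariate), 8 with a log2 fold change of at least 2, and 7 to 14 leaving out single mice, with 7 without BG38 and 8 without BG90. In ABpIF/+ vs Ctrl 17 related genes were called and 8 with the strain label as a covariate. In ABpIF/F vs Ctrl 14 were called, 5 with the strain label and 4 with the clock score. By Spearman's rho, 4 of the 21 most correlated genes were named again. With the clock score, calls over all genes fell too, to 95 in ABpIF/+ vs ABpIF/F and 580 in ABpIF/F vs Ctrl. The cause of these changes was not tested. No value of the 7 genes, or of a called related gene, changed its direction under the alternatives run. Of 490 values of single genes of the 7 under alternatives, 452 kept their side of the threshold or moved by less than 1 SD. The second deposited table was not fitted separately, since its named columns are identical.

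No paired analysis was possible because the groups are different mice and the table's columns carry no replicate number. Low counts in Ctrl limit the precision of the fold changes from Ctrl, and 3 ABpIF/F mice limit the comparison of the *Braf* V600E groups. There, leaving out 1 ABpIF/F mouse moved the calls of *Cacna1b* (BG38) and *Gldn* (BG90). The call of *Tff3* moved without the Ctrl mouse malpa387.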
